A study of Mus musculus with 42 samples.

Results

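The 8 genes Gal, Nts, Cck, Vip, Grp, Nmu, Ucn3 and Nucb2, which encode neuropeptide precursors, were followed across 4 hypothalamic nuclei. They were taken by name through their Ensembl IDs, 8 of 8 had a row among the 37907 in the table, and 7 passed a filter on low values (4 or more libraries at 1 RPKM or above), which Vip did not. RNA-seq was run on the arcuate nucleus (ARC), ventromedial hypothalamus (VMH), dorsomedial hypothalamus (DMH) and paraventricular nucleus (PVN) of wild-type C57/BL6 mice, all adult males, cut from brain sections by laser capture. The mice were fed, or fasted for 24 hours before dissection. The ARC was represented by 5 fed and 5 fasted libraries, the VMH by 6 and 6, the DMH by 5 and 4 and the PVN by 6 and 5, which makes 42. The RNA was amplified before sequencing. The labels do not say which libraries came from the same mouse, although the study took several nuclei from a brain, so libraries were compared as if independent and p-values measure the spread between libraries.

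Neuropeptides are cut from larger precursor proteins, packed into dense-core vesicles and released beside the fast transmitters glutamate and GABA. Most act on G protein-coupled receptors, often of neurons at some distance. In the hypothalamus galanin is known for stimulating food intake, while neurotensin, cholecystokinin, gastrin-releasing peptide, neuromedin U, urocortin 3 and nesfatin-1 (cut from nucleobindin 2, the product of Nucb2) are known for reducing it. Vasoactive intestinal peptide (Vip) is best known in the clock neurons of the suprachiasmatic nucleus, which was not dissected here.

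The values are RPKM, reads scaled to gene length and library size, so levels can be set side by side between genes. The table holds an added count, so that a gene with no reads has a small value above 0, called the no-read value here. It differed between 3 sets of libraries (10, 16 and 16), called batches, whose membership was inferred from these recurring values. Estimated depth ranged from 1.33 to 13.2 M reads and gave two-sided exact permutation p-values between fed and fasted libraries of 0.548 for the ARC, 0.688 for the VMH and 0.838 for the PVN. For the DMH the fasted libraries were deeper, at 4.78 to 13.2 M reads against 2.94 to 5.05 M reads in fed mice (exact permutation p = 0.0317). All 13 of 13 marker genes of the dissected nuclei were highest in the nucleus of their label. The DMH libraries also held Hcrt and Pmch, the defining peptides of the lateral hypothalamus, at a summed 269 to 1448 RPKM in fed and 401 to 630.5 RPKM in fasted libraries, against 35.2 RPKM at most in any other nucleus. The part of lateral hypothalamic tissue in the DMH values was not tested. In bulk tissue, fewer cells of a type and less RNA per cell cannot be told apart.

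The stretches before the starts of Gal, Nts, Cck and Ucn3 are printed because these genes, of the 7 members with a promoter in the table, had the widest gaps between fed nuclei. They were read from RefSeq promoters on GRCm38.p6, 5′ to 3′ on the strand of the gene, all on the minus strand, and stop before the first base transcribed in RefSeq or in GENCODE M21. Capitals mark TGACG, or CGTCA on the other strand, the core of the cyclic AMP response element. The stretch of Gal is at chr19:3414545-3414744 and that of Nts at chr10:102490487-102490618. The stretch of Cck is at chr9:121495695-121495894 and that of Ucn3 at chr13:3945350-3945549.
Gal: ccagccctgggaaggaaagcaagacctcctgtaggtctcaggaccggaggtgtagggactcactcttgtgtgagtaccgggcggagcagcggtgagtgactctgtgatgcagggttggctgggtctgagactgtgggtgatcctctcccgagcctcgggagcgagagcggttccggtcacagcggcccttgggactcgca
Nts: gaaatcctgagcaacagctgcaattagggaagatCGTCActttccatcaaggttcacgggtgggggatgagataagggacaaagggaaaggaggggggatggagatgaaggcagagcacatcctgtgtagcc
Cck: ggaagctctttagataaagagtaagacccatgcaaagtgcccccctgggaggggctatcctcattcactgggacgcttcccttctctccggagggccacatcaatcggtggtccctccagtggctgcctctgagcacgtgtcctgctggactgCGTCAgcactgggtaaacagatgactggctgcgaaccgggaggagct
Ucn3: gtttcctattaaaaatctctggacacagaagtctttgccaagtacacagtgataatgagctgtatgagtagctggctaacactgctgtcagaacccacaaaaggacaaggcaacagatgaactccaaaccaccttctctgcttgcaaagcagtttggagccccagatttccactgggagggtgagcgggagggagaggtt

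Within the 200 bases before the RefSeq start this core was found in Nts (first base 166 bases before the start), Cck (47 bases), Vip (79 bases) and Nmu (114 bases), which is 4 of the 7 members with a promoter in the table. In the same window it occurred in 15.7% of all 32851 promoters, and the whole element TGACGTCA, which contains the core on both strands, in 1.47% of them and in none of the 7 members. A match is a run of letters and says nothing here about a factor binding there. The members with and without a match did not divide by nucleus, since Gal and Cck were both highest in the DMH.

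The first question was where in the hypothalamus each peptide gene was expressed. Across the 4 nuclei of fed mice 6 of the 7 tested members passed the threshold (limma F test, adjusted p under 0.1), against a background of 12.4% of all 33579 genes tested. The same 6 members passed it among fasted mice, where the background was 11.9%. The filter kept genes with few or no reads, since the no-read value was often above 1 RPKM (median 1.25 RPKM). The backgrounds here and below count such genes, which could hardly pass. Gal, Nts, Cck and Grp were highest in the DMH in both states, and Ucn3 and Nucb2 were highest in the PVN. Within the batches that held that nucleus this broke only in fed mice. There Nts was highest in the VMH in the second batch and Cck in the ARC in the first. Nmu did not pass, with an adjusted p of 1.0 in fed and 0.341 in fasted mice.

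**Figure D1:**
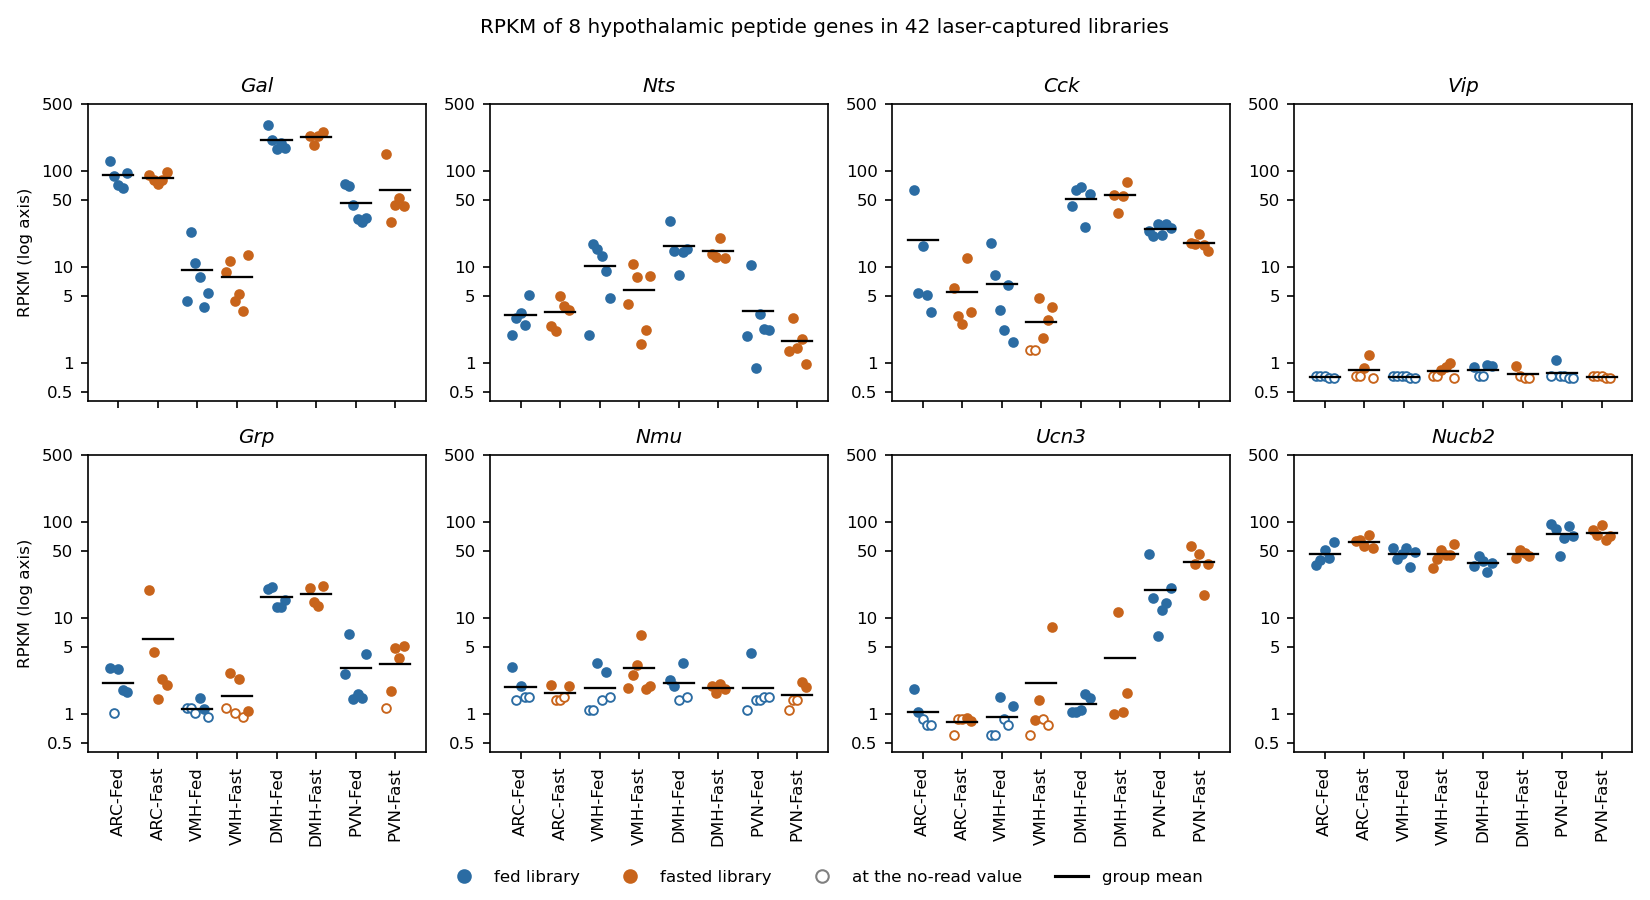
RPKM (log axis) of the 8 peptide genes in each of the 42 libraries by nucleus and nutritional state, with black bars for group means and open circles for libraries at the no-read value. Gal reached 299 RPKM in the DMH, Ucn3 stood above 6.4 RPKM in every PVN library, and Vip was at the no-read value in 32 libraries.

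Gal (chr19:3409915-3414544, minus strand, GRCm38), the galanin precursor, was the most abundant of the 8 in the DMH. Its fed DMH libraries were at 299, 209, 168, 196 and 176 RPKM, and its fasted DMH libraries at 230.5, 186, 231 and 256 RPKM. The ARC came next, at 128, 89.7, 71.4, 66.0 and 96.1 RPKM in fed and 91.6, 80.5, 72.8, 81.1 and 97.0 RPKM in fasted libraries. Every DMH library was therefore above every ARC library. PVN libraries ran from 29.1 to 72.6 RPKM with a median of 38.5 RPKM in fed mice, and were at 149, 29.7, 43.8, 52.9 and 43.2 RPKM in fasted mice. PVN-Fast library 1, the one at 149 RPKM, also had the highest summed ARC markers of the PVN libraries (102 RPKM), whose part in its Gal level was not tested. The VMH was lowest, from 3.82 to 23.1 RPKM (median 6.56) in fed and from 3.44 to 13.2 RPKM (median 6.99) in fasted libraries.

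The gap in Gal between DMH and VMH was 4.57 on the log2(RPKM + 1) scale (SE 0.36, adjusted p = 1.77e-11) in fed and 4.82 (SE 0.38, adjusted p = 4.19e-11) in fasted mice. The DMH exceeded the ARC by 1.22 in fed mice (SE 0.37, adjusted p = 0.094) and by 1.404 in fasted mice (SE 0.40, adjusted p = 0.0512). Both calls were close to the threshold, and the fed one was lost in 13 of 20 alternatives, where adjusted p reached 0.232, and the fasted one in 5 of 19, where it reached 0.116. ARC and PVN, neighbours in the order, did not pass in fed (difference 0.995, SE 0.357, adjusted p = 0.167) or fasted mice (0.637, SE 0.373, adjusted p = 0.54), and their libraries overlapped. The DMH held the highest mean within each of the 3 batches in fed mice and each of the 2 with fasted DMH libraries.

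Gad2, an enzyme that makes GABA, had the pattern most like Gal among 15746 genes (Pearson r = 0.966 over 42 libraries). Group means of Gad2 were 218 and 193 RPKM in the fed and fasted DMH, 150 and 135 RPKM in the ARC, 63.0 and 55.5 RPKM in the PVN and 17.6 and 14.4 RPKM in the VMH. Within a nucleus, over 9 to 12 libraries, r was 0.634 (ARC), 0.835 (VMH), 0.72 (DMH) and 0.609 (PVN). The next most alike genes were Nrxn3, a presynaptic adhesion protein (r = 0.934), and Flrt3, a membrane adhesion protein (r = 0.907). Libraries share nuclei, batches and amplification, so these values describe the pattern only.

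**Figure D2:**
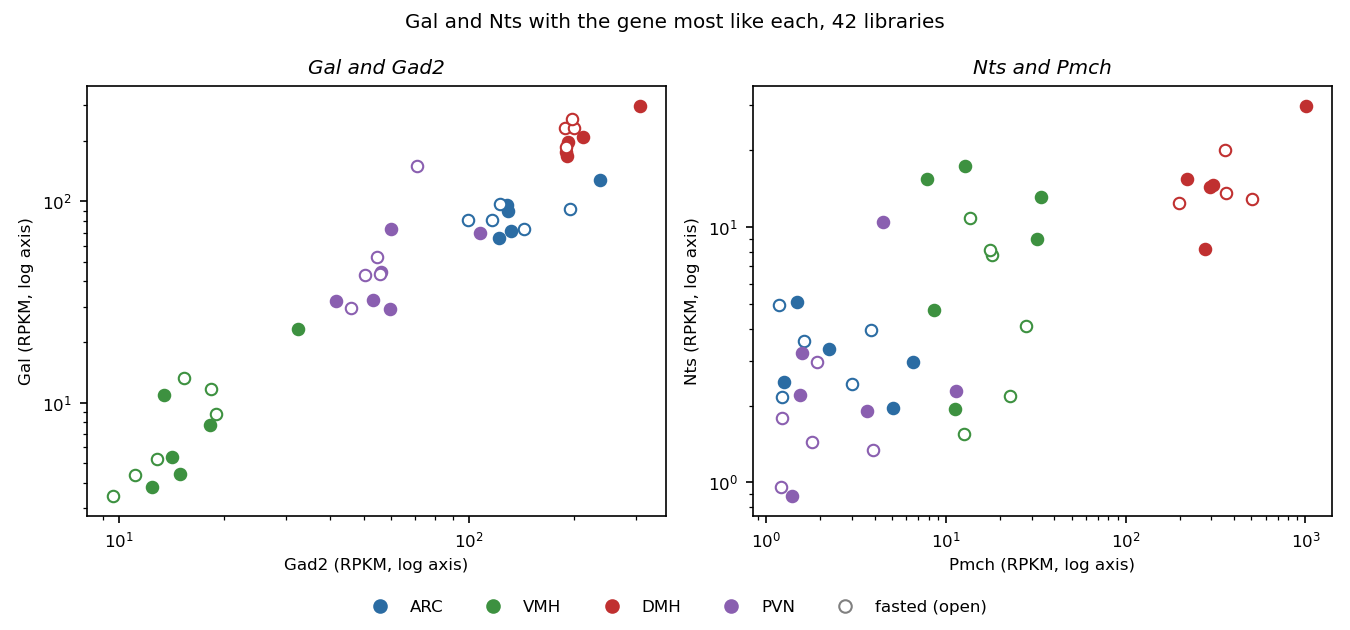
Gal against Gad2 and Nts against Pmch in RPKM on log axes, a point for each of 42 libraries, filled for fed and open for fasted, coloured by nucleus. Gal and Gad2 fell along a line from VMH to DMH libraries (r = 0.966). For Nts and Pmch (r = 0.77), Pmch alone separated the DMH from the other nuclei. Nts scattered widely in the VMH, and some VMH libraries and PVN-Fed library 2 lay within its DMH range.

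Nts (chr10:102481756-102490486, minus strand), the neurotensin precursor, was a DMH and VMH transcript of lower level. Fed DMH libraries were at 29.9, 14.6, 8.16, 14.3 and 15.5 RPKM and fasted DMH libraries at 13.6, 12.8, 19.9 and 12.4 RPKM. VMH libraries ran from 1.95 to 17.2 RPKM (median 11.1) in fed and from 1.55 to 10.8 RPKM (median 5.93) in fasted mice. Fed VMH libraries overlapped those of the DMH, and fasted ones did not. ARC libraries were at 1.95, 2.95, 3.32, 2.47 and 5.09 RPKM in fed and 2.43, 2.15, 4.95, 3.96 and 3.59 RPKM in fasted mice, below every DMH library. PVN libraries ran from 0.885 to 10.5 RPKM (median 2.24) in fed mice and were at 1.34, 2.97, 1.44, 1.79 and 0.962 RPKM in fasted mice.

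In fed mice Nts was higher in the DMH than in the ARC by 2.01 (SE 0.44, adjusted p = 0.00638) and than in the PVN by 2.11 (SE 0.42, adjusted p = 0.00168). DMH and VMH, the top of the order, did not pass in fed mice (0.78, SE 0.42, adjusted p = 0.427) and passed in fasted mice (1.405, SE 0.45, adjusted p = 0.0933), but the fasting response of Nts did not differ between nuclei past the threshold (interaction adjusted p = 1.0). The VMH exceeded the ARC in fed mice by 1.23 (SE 0.42, adjusted p = 0.0828), a call lost in 11 of 21 alternatives, where adjusted p reached 0.197. The fasted DMH call over the VMH was lost in 11 of 20, where adjusted p reached 0.24.

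Pmch had the pattern most like Nts (r = 0.77), followed by Parpbp (r = 0.762), which lies on the opposite strand and shares 435 exon bases with Pmch (12.1% of its own and 58.1% of those of Pmch), so that their reads could not be told apart if strand was not used, and Lrp1b, a large membrane receptor of the LDL receptor family (r = 0.752). In DMH-Fed library 1 both stood apart, with Nts at 29.9 RPKM and Pmch at 1003 RPKM. The summed lateral hypothalamic markers were 1448 RPKM in that library and 269 to 630.5 RPKM in the other DMH libraries, in which Nts was at 8.16 to 19.9 RPKM. Within the 9 DMH libraries r was 0.672, within the 12 VMH libraries 0.0413, within the 11 PVN libraries 0.337 and within the 10 ARC libraries -0.313. The part of neighbouring tissue in Nts was not tested.

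Cck (chr9:121489824-121495694, minus strand), the cholecystokinin precursor, was at 42.8, 63.0, 68.2, 26.4 and 57.1 RPKM in the fed DMH and at 56.2, 36.6, 54.6 and 77.5 RPKM in the fasted DMH. PVN libraries ran from 21.2 to 27.98 RPKM (median 24.6) in fed mice and were at 17.8, 17.5, 22.0, 16.7 and 14.6 RPKM in fasted mice. All fed PVN libraries were under all but 1 of the fed DMH libraries. ARC libraries were at 64.1, 5.31, 16.6, 5.12 and 3.36 RPKM in fed and 6.06, 3.09, 2.52, 12.5 and 3.41 RPKM in fasted mice. VMH libraries ran from 1.67 to 17.9 RPKM (median 4.99) in fed and from 1.36 to 4.70 RPKM (median 2.29) in fasted mice, and 2 of the fasted ones were at the no-read value. A single fed ARC library, number 1, thus reached DMH levels, and it also held the highest PVN, DMH and pars tuberalis marker sums of the ARC libraries (177, 28.04 and 16.9 RPKM, against at most 99.9, 16.7 and 10.8 RPKM in the others). The part of neighbouring tissue in its Cck level was not tested.

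Cck in the DMH exceeded that in the VMH by 3.04 in fed (SE 0.48, adjusted p = 4.07e-05) and 4.01 in fasted mice (SE 0.51, adjusted p = 1.44e-06). The PVN exceeded the VMH by 2.07 (SE 0.46, adjusted p = 0.002) and 2.44 (SE 0.48, adjusted p = 0.000531). No pair of neighbours in the order DMH, PVN, ARC, VMH passed in fed mice, with adjusted p of 0.429, 0.289 and 0.376. PVN against ARC in fed mice did pass in 2 of 21 alternatives (adjusted p down to 0.0082). In fasted mice the PVN exceeded the ARC by 1.70 (SE 0.50, adjusted p = 0.0541). Among the genes most like Cck were Pter (r = 0.829) and the DMH marker Ppp1r17 (r = 0.821).

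Grp (chr18:65872820-65886596, plus strand), the gastrin-releasing peptide precursor, was above 12.9 RPKM in every DMH library. Fed DMH libraries were at 19.97, 21.2, 12.9, 13.1 and 15.7 RPKM and fasted ones at 20.9, 14.6, 13.6 and 21.9 RPKM. ARC libraries were at 3.02, 1.02, 2.96, 1.80 and 1.69 RPKM in fed and 19.9, 4.44, 1.43, 2.31 and 1.999 RPKM in fasted mice. Outside the DMH, ARC-Fast library 1 was thus the only library of the 42 to reach the DMH range. PVN libraries ran from 1.44 to 6.83 RPKM (median 2.13) in fed mice and were at 1.17, 1.74, 4.84, 3.83 and 5.17 RPKM in fasted mice. VMH libraries ran from 0.931 to 1.46 RPKM in fed and to 2.71 RPKM in fasted mice, with 7 of 12 at the no-read value.

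Grp in the DMH exceeded that in the ARC by 2.52 in fed (SE 0.38, adjusted p = 5.61e-05) and 1.92 in fasted mice (SE 0.41, adjusted p = 0.00488). It exceeded the PVN by 2.24 (SE 0.37, adjusted p = 0.000125) and 2.198 (SE 0.41, adjusted p = 0.000851). ARC, PVN and VMH did not pass against each other in either state, although ARC against VMH in fasted mice passed in 6 of 21 alternatives (adjusted p down to 0.041) and VMH against PVN in 1 of 22 in fed (0.0788) and 1 of 21 in fasted mice (0.0242). Genes most like Grp were Npvf, a peptide of DMH neurons (r = 0.843), Hcrt (r = 0.832) and the synaptic vesicle protein Synpr (r = 0.822). Over libraries Grp also went with Gal (r = 0.725) and Cck (r = 0.668).

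Ucn3 (chr13:3940688-3945349, minus strand), the urocortin 3 precursor and a ligand of the type 2 CRH receptor, was a PVN transcript. Fed PVN libraries were at 46.9, 16.1, 6.47, 12.2, 14.5 and 20.6 RPKM and fasted ones at 56.3, 36.5, 46.9, 17.6 and 36.7 RPKM. In ARC libraries Ucn3 ran from 0.6 to 1.83 RPKM, with 6 of 10 at the no-read value, and in fed VMH libraries to 1.52 RPKM. Outside the PVN just VMH-Fast library 6 (8.03 RPKM) and DMH-Fast library 2 (11.6 RPKM) came up to PVN levels, while the other DMH libraries were at 1.002 to 1.67 RPKM. Every other library outside the PVN was below the lowest PVN library.

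Ucn3 in the PVN exceeded that in the ARC by 3.10 in fed (SE 0.41, adjusted p = 1.32e-06) and 4.36 in fasted mice (SE 0.42, adjusted p = 2.84e-09), in the VMH by 3.18 and 3.93 and in the DMH by 2.94 and 3.44, and all 6 comparisons passed. The gap is understated, since many of the lower libraries held no reads above the added count. Among ARC, VMH and DMH no pair passed in either state. Genes most like Ucn3 were Pgf, a growth factor of the VEGF family (r = 0.924), and the transcription factors Uncx (r = 0.912) and Fezf2 (r = 0.906).

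Nucb2 (chr7:116504369-116540584, plus strand), which encodes the precursor of nesfatin-1, was at 30.2 RPKM or more in all 42 libraries. PVN libraries ran from 44.4 to 96.5 RPKM (median 78.3) in fed mice and were at 82.8, 73.3, 92.9, 65.2 and 72.6 RPKM in fasted mice. ARC libraries were at 36.3, 40.6, 51.0, 42.7 and 62.0 RPKM in fed and 63.9, 64.7, 57.2, 74.0 and 53.9 RPKM in fasted mice. DMH libraries were at 34.8, 44.8, 39.4, 30.2 and 37.8 RPKM in fed and 42.4, 51.8, 48.3, 44.3 RPKM in fasted mice. VMH libraries ran from 34.3 to 54.2 RPKM in fed and from 33.6 to 59.9 RPKM in fasted mice, and the fed PVN overlapped every other fed nucleus.

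The PVN exceeded the DMH in Nucb2 by 0.97 in fed (SE 0.16, adjusted p = 9.22e-05) and 0.71 in fasted mice (SE 0.17, adjusted p = 0.0178). Its excess over the VMH was 0.67 (SE 0.15, adjusted p = 0.00234) and 0.74 (SE 0.16, adjusted p = 0.00133). Over the ARC it passed in fed mice at 0.68 (SE 0.16, adjusted p = 0.00642) and not in fasted mice at 0.30 (SE 0.16, adjusted p = 0.498), and the difference between states did not pass (interaction adjusted p = 1.0). Without the first batch ARC minus PVN in fed mice was -0.46 with an adjusted p of 0.258. Genes most like Nucb2 were Ppa1, an inorganic pyrophosphatase (r = 0.75), Nrg1, a growth factor of ERBB receptors (r = 0.731), and the potassium channel Kcnd3 (r = 0.731).

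Vip and Nmu were at the edge of detection. Vip was at the no-read value in 32 of 42 libraries, including all fed ARC, fed VMH and fasted PVN libraries, and reached 1 RPKM in 3, with a highest value of 1.22 RPKM and an estimated 4 reads at most in any library. A count of 0 allows up to 3 reads, which corresponds to between 0.145 and 1.49 RPKM over the added count, depending on depth and covering counting error only. Nmu, the neuromedin U precursor, had group means of 1.59 to 3.02 RPKM and was at the no-read value in 20 libraries. Its highest values were 6.65 RPKM in VMH-Fast library 4 and 4.35 RPKM in PVN-Fed library 2, and 6.64% of its exon length (chr5:76333495-76363788, minus strand) overlaps another gene, whose reads could not be told apart if strand was not used. A difference between nuclei was not detectable at this depth for Nmu and was not tested for Vip (chr10:5639218-5647617, plus strand). The genes most like them were Gm25263, Gm24224 and Gm23273 for Vip (r = 0.63, 0.592 and 0.572) and A830092H15Rik, Gm26220 and 4933404O12Rik for Nmu (r = 0.648, 0.635 and 0.635). Group means ran from only 10.9 to 11.35 RPKM for Gm25263, from 8.06 to 8.98 RPKM for Gm23273 and from 12.3 to 13.1 RPKM for Gm26220, and no pattern is read from these r values, with Vip and Nmu at the no-read value in so many libraries.

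Taken pair by pair, members past the threshold in fed mice numbered 2 of 7 between ARC and VMH (background 7.9%), 4 between ARC and DMH (2.79%), 2 between ARC and PVN (4.13%), 3 between VMH and DMH (5.24%), 5 between VMH and PVN (9.84%) and 5 between DMH and PVN (3.42%). In fasted mice the counts were 2 between ARC and VMH (8.91%), 4 between ARC and DMH (3.21%), 2 between ARC and PVN (4.19%), 4 between VMH and DMH (3.94%), 4 between VMH and PVN (9.24%) and 5 between DMH and PVN (3%). The 4 members higher in the DMH than in the ARC were Gal, Nts, Cck and Grp in both states. Between ARC and VMH, Gal passed in both states, Nts in fed and Nucb2 in fasted mice. Nucb2 there was 0.44 higher in the ARC (SE 0.16, adjusted p = 0.0919), a call lost in 11 of 21 alternatives, where adjusted p reached 0.495.

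The second question was whether 24 hours without food changed these genes. None of the 7 tested members passed the threshold in the ARC (background 0.0566%), the VMH (0.131%), the DMH (0.0238%) or the PVN (0.0715%), and none had a response that differed between nuclei (0.00596%). By limma 3 of the 28 comparisons had an unadjusted p under 0.05, and by the exact permutation test 4 did. Of all genes tested, 7.5% (ARC), 7.31% (VMH), 6.48% (DMH) and 5.53% (PVN) had a limma p that low. Fed and fasted libraries overlapped in all 28. The exact test and the overlap were worked out for members, receptors and relatives only. No share of all genes can therefore be set beside the 4, and no excess is read from them. The median change of the members was -0.06 (ARC), -0.02 (VMH), 0.13 (DMH) and 0.05 (PVN). The median of all genes tested, which include genes with few or no reads, was 0.0.

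**Figure D3:**
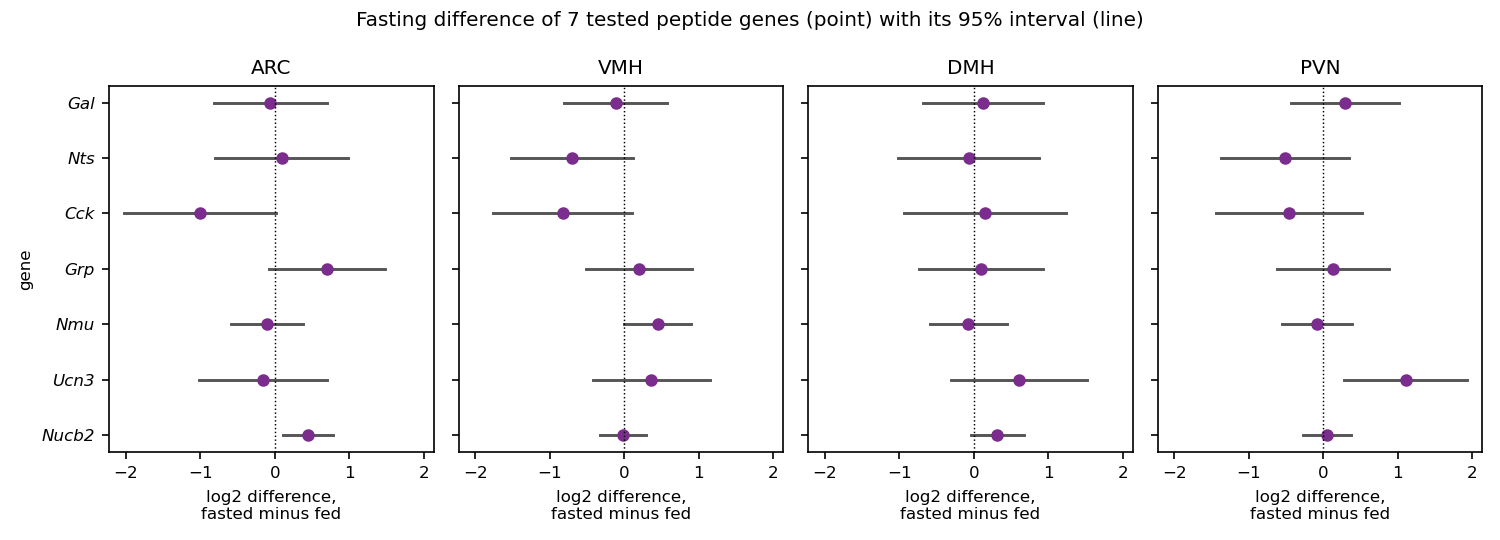
Fasted minus fed difference on the log2(RPKM + 1) scale (point) with its 95% interval (line) for the 7 tested genes in each nucleus. The values run from -0.9997 for Cck in the ARC to 1.11 for Ucn3 in the PVN, and no gene passed the threshold after adjustment.

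Ucn3 in the PVN had the largest positive difference of the 28. Its mean was 19.5 ± 14.2 RPKM (SD, n = 6) in fed and 38.8 ± 14.4 RPKM (n = 5) in fasted mice. The log2 difference was 1.11 (SE 0.41, 95% interval 0.28 to 1.93, adjusted p = 0.706 with limma, exact permutation p = 0.0476). Of the 5 fasted libraries 4 were above the fed mean, and the difference was 1.004, 2.09 and 0.54 within the 3 batches. Fed library 1, at 46.9 RPKM, lay inside the fasted range. The sum of both DMH markers in the same PVN libraries did not overlap between states, at 13.6 to 30.5 RPKM in fed and 35.2 to 69.6 RPKM in fasted mice. That difference was in Ppp1r17, at group means of 18.9 and 47.3 RPKM, while Npvf, the other marker, was at 1.82 and 1.43 RPKM. The part of neighbouring tissue in the Ucn3 difference was not tested. Among the genes most like Ucn3, which were picked over these same libraries, Pgf had means of 12 RPKM in the fed and 26.2 RPKM in the fasted PVN. Uncx was at 10.5 and 8.69 RPKM there and Fezf2 at 22.9 and 21.0 RPKM, so their means were not higher in fasted mice. No test is given for Pgf, Uncx or Fezf2.

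Nucb2 in the ARC was at 46.5 ± 10.2 RPKM (SD, n = 5) in fed and 62.7 ± 7.75 RPKM (n = 5) in fasted mice. The difference was 0.44 (SE 0.16, 95% interval 0.11 to 0.77, adjusted p = 0.616 with limma, exact permutation p = 0.0317). All 5 fasted libraries were above the fed mean, and the difference was 0.80, 0.41 and 0.29 within the batches. Nucb2 in the DMH was at 37.4 ± 5.42 RPKM (n = 5) in fed and 46.7 ± 4.205 RPKM (n = 4) in fasted mice, a difference of 0.32 (SE 0.17, 95% interval -0.04 to 0.67, adjusted p = 0.864 with limma, exact permutation p = 0.0397). There the fasted libraries were also deeper, with overlapping ranges, and the difference was 0.31 with estimated depth as a covariate (adjusted p = 0.949). In the VMH and PVN the changes of Nucb2 were -0.02 and 0.05, with 95% intervals of -0.32 to 0.29 and -0.27 to 0.37.

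Cck in the PVN was at 24.7 ± 2.97 RPKM (SD, n = 6) in fed and 17.7 ± 2.70 RPKM (n = 5) in fasted mice. It differed by -0.46 (SE 0.48, 95% interval -1.44 to 0.52, adjusted p = 1.0 with limma), and the exact permutation test gave p = 0.00866. The 2 tests use different spreads, since limma takes that of all 8 groups, which is wide for Cck in the ARC and VMH, and the permutation test takes that of the PVN libraries. All 5 fasted libraries were below the fed mean, and the difference was -0.31, -0.32 and -0.74 within the batches. The Cck difference was -0.9997 in the ARC (SE 0.50, adjusted p = 0.676) and -0.82 in the VMH (SE 0.46, adjusted p = 0.633), where none of the 11 fasted libraries exceeded the fed mean, but the ARC value was -0.45 and the VMH value 0.0063 without the first batch. In the DMH it differed by 0.15 (SE 0.53, adjusted p = 1.0).

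**Figure D4:**
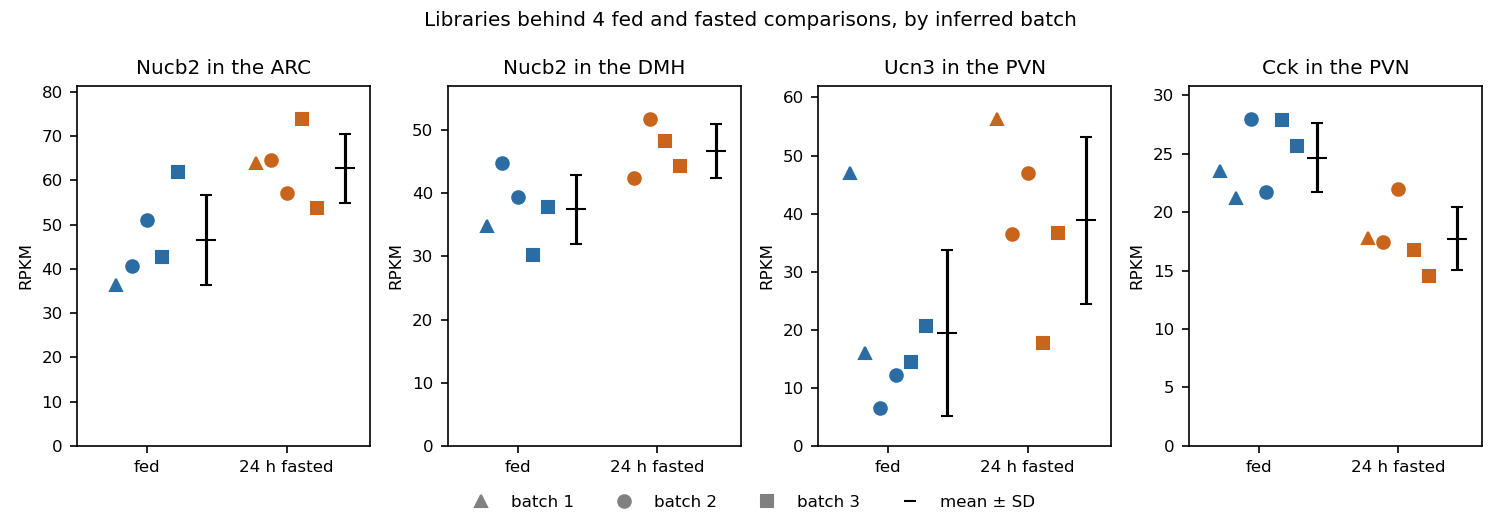
RPKM of Nucb2 in the ARC and DMH, Ucn3 in the PVN and Cck in the PVN for each fed and fasted library, with the marker shape giving the inferred batch and the bar the mean ± SD. The 4 comparisons are those with an exact permutation p under 0.05 (0.0317, 0.0397, 0.0476 and 0.00866), and fed and fasted libraries overlap in each.

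In a setting added after seeing the data, these 4 comparisons lost that level when the first batch was left out, which leaves 4 fed and 4 fasted libraries in each nucleus, where the smallest p such a test can reach is 0.0286. The differences were then 0.35 for Nucb2 in the ARC (exact permutation p = 0.114), 0.30 in the DMH (0.0857), 1.32 for Ucn3 in the PVN (0.0571) and -0.53 for Cck in the PVN (0.0571). Their directions did not turn.

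The remaining peptides gave these values. Gal differed by -0.06 (ARC), -0.12 (VMH), 0.13 (DMH) and 0.30 (PVN), with intervals of up to 0.80 to either side. The sign turned with 1 library left out outside the DMH, and the value was -0.07 in the PVN without PVN-Fast library 1, 0.18 in the VMH without VMH-Fed library 2 and 0.08 in the ARC without ARC-Fed library 1. The VMH value was 0.05 without VMH-Fast library 5. Nts in the VMH differed by -0.70 (95% interval -1.51 to 0.12, exact permutation p = 0.229) and ranged from -0.52 to 0.09 elsewhere. Grp in the ARC differed by 0.70 (95% interval -0.08 to 1.48, exact permutation p = 0.294), and by 0.17 without ARC-Fast library 1, and it differed by 0.09 to 0.20 in the other nuclei. Nmu in the VMH differed by 0.45 (95% interval 0.0021 to 0.89, unadjusted p = 0.049, adjusted p = 0.617, exact permutation p = 0.149) on an estimated 15 reads at most. The 95% interval held a log2 difference of 1 in either direction in at least 1 nucleus for Gal, Nts, Cck, Grp and Ucn3.

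Of the receptors of these peptides 13 of 14 had a row and 12 were tested. Between fed nuclei 8 of 12 passed, as did 8 of 12 between fasted nuclei, on the same backgrounds of 12.4% and 11.9%. Cckar, the CCK1 receptor, was highest in the PVN at 24.8 ± 7.33 RPKM in fed (SD, n = 6) and 22.0 ± 4.73 RPKM in fasted mice (n = 5), and at most 7.25 RPKM in the mean of any other group (adjusted p = 4.94e-09 between fed nuclei). Cckbr, the CCK2 receptor, was highest in the VMH at 15.5 ± 4.75 and 12.5 ± 3.45 RPKM (n = 6 each) and at most 3.28 RPKM elsewhere (adjusted p = 1.56e-09). The 2 receptors thus peaked in different nuclei, and neither in the DMH, where Cck itself was highest. Sort1, a sorting receptor that also binds neurotensin, was highest in the VMH at 23.0 ± 5.02 RPKM in fed mice and lowest in the ARC at 11.4 ± 1.72 RPKM (adjusted p = 0.000135). The other receptors past the threshold in fed mice, Galr1, Ntsr1, Vipr2, Grpr and Nmur2, stayed under a group mean of 10 RPKM.

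**Figure D5:**
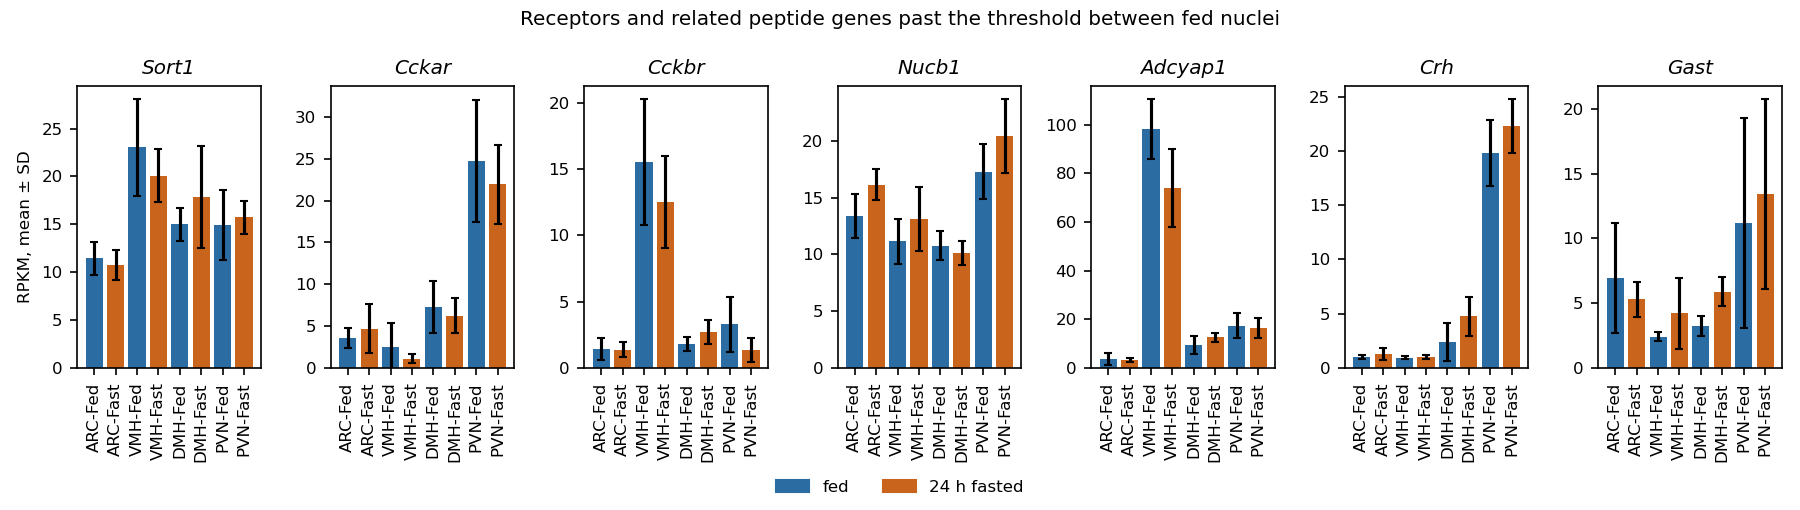
Group means of RPKM with SD for the receptors Sort1, Cckar and Cckbr and the related peptide genes Nucb1, Adcyap1, Crh and Gast in fed and 24 h fasted mice (n = 4 to 6 libraries). Cckar was highest in the PVN and Cckbr and Adcyap1 in the VMH.

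Of 9 relatives from the same peptide families, 6 passed between fed and 4 between fasted nuclei, on the same backgrounds of 12.4% and 11.9%. The 6 include Nms, which was at the no-read value in 32 of 42 libraries. Adcyap1, which encodes PACAP of the Vip family, was at 98.2 ± 12.3 RPKM in the fed VMH (SD, n = 6) against 3.52 to 17.2 RPKM in the means of the other fed nuclei (adjusted p = 2.05e-14), and all fed VMH libraries were at the no-read value for Vip. Crh, a relative of Ucn3, was at 19.8 ± 3.03 RPKM in the fed PVN and at 0.918 to 2.39 RPKM elsewhere (adjusted p = 2.06e-17), but it is also a PVN marker on the list used to check the dissection. Nucb1, the relative of Nucb2, was likewise highest in the PVN, at 17.3 ± 2.44 RPKM against 10.8 to 13.4 RPKM (adjusted p = 0.000459). Gast, the gastrin gene of the Cck family, was at 11.2 ± 8.13 RPKM in the fed PVN (adjusted p = 0.00332 between fed nuclei), on a median of an estimated 8 reads. All 6 fed VMH libraries were at the no-read value. The fed ARC was at 6.92 ± 4.26 RPKM, and Gast did not pass between ARC and PVN in fed mice. No receptor and no relative passed the threshold for fasting in any nucleus or for a response that differed between nuclei. By limma, unadjusted p under 0.05 was reached by Cckbr in the PVN, Crhr2 in the VMH, and Nms and Crh in the DMH, which is 4 of 84 comparisons (4.76%), a share below those given for all genes. The 84 include Ucn, at the no-read value in 40 of 42 libraries. Exact permutation p was 0.00649 for Adcyap1 in the VMH, 0.0238 for Gast in the DMH, 0.0303 for Crhr2 in the PVN and 0.0476 for Nucb1 in the ARC. No other exact permutation p among the 84 was under 0.05, and by limma none of these comparisons reached that level. The fasted minus fed log2 differences were -0.42, 0.71, 0.25 and 0.26, in the same order. Crhr2 in the PVN had group means of only 0.431 RPKM in fed and 0.711 RPKM in fasted mice. Exact permutation p was 0.00866 for Vipr1 in the VMH, a gene that did not pass the filter, on an estimated 9 reads at most there. As for the members, no share of all genes can be set beside these exact tests, and no excess is read from them.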

How the data were processed

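Laser-captured nuclei were sequenced after RNA amplification, and 42 libraries were grouped by nucleus and nutritional state from their labels. The submitters' processing notes name CASAVA 1.7, TopHat2 2.0.11, Cufflinks 2.2.1, edgeR, limma and the build GRCm38. The authors deposited RPKM values, reads scaled to gene length and library size. These values hold an added count (5 reads on average, 1.46 to 14.5 by library, in proportion to depth), and the batch means of their log2 values had been removed, so batch was not a term in the fits and p-values may be too small. The first batch held 1 fed and 0 fasted DMH libraries, against 2 fed and 2 fasted VMH libraries. With nuclei so unevenly spread, removing batch means can also have shifted the levels of its libraries, and the size of such a shift was not tested. The 3 batches, the depth (4.57 M reads on average) and the reads behind a value were inferred from recurring no-read values, and 97.7 to 98.8% of low values then fell within 0.02 of a whole read. This depth is the library size behind the RPKM values and not the number of reads sequenced, for which the study reports a higher average over its whole set of nuclei. The counts themselves were not used here, so no count model was run.

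The 33579 genes at 1 RPKM or above in 4 or more libraries were fitted as log2(RPKM + 1), a scale that understates changes of low genes, with limma 3.58.1 in R 4.3.3 (8 group means, empirical Bayes with an intensity trend). P-values were adjusted by Benjamini-Hochberg over all genes, and adjusted p under 0.1 was called. Two-sided exact permutation tests compared fed with fasted libraries for each member, receptor and relative. Tables were handled with pandas 2.3.3 and numpy 2.4.6. Tested on simulated data for fasting in the PVN, calls were made for 80.9% of 115 genes given a log2 change of 1, for 100% of 85 given 2 and for 0.0419% of the rest. The simulated noise was normal and independent, and many genes were changed at once, all of them above a low level. These shares need not hold for the measured values. How often such changes would be called in the members themselves was not tested. In the measured PVN libraries the SE of the members ran from 0.16 (Nucb2) to 0.48 (Cck). Ucn3 there, with a log2 difference of 1.11 (SE 0.41), had an adjusted p of 0.706 with limma.

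Members and lists (receptors, relatives, markers) were chosen with earlier results of these data known. All members were named. Receptors and relatives were named with values where they passed between fed nuclei and had a group mean of at least 10 RPKM, and the 3 genes with the highest Pearson r to each member over 42 libraries were named, taken from 15746 genes with a group mean of at least 5 RPKM, except 1 that is not reported here. Gene positions came from GENCODE on GRCm38 and promoters from RefSeq on GRCm38.p6. Alternatives were other pseudocounts (0.1 and 5), no filter or a stricter one (RPKM of at least 5), quantile normalization, no trend, the compared groups alone, depth as a covariate, the replicate number as a block, each library left out and, added after seeing the data, leaving out the first batch.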

Additional observations from a re-analysis of the deposited data

Results flagged for a closer look

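Of 64 groups of member values 15 held a library far from the rest of its group, measured by its gap to the nearest library as a share of the whole range. Chance gives about 1 in 20 groups where values are normally spread, which RPKM values and groups with tied no-read values are not, so no excess is read from the count. The 15 values came from 11 libraries, and 10 of them lay in the first batch, which holds 10 libraries, against 3 and 2 in the others with 16 each. 

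Gal was at 23.1 RPKM in VMH-Fed library 2, where the other libraries of the group were at 3.82 to 10.9 RPKM, and at 149 RPKM in PVN-Fast library 1 against 29.7 to 52.9 RPKM. Nts was at 19.9 RPKM in DMH-Fast library 3 against 12.4 to 13.6 RPKM and at 10.5 RPKM in PVN-Fed library 2 against 0.885 to 3.20 RPKM. Cck was at 64.1 RPKM in ARC-Fed library 1 against 3.36 to 16.6 RPKM. Grp was at 19.9 RPKM in ARC-Fast library 1 against 1.43 to 4.44 RPKM.

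Ucn3 stood apart in 5 groups. PVN-Fed library 1 held it at 46.9 RPKM against 6.47 to 20.6 RPKM in the others. It stood in DMH-Fast library 2 at 11.6 RPKM, the others being at 1.002 to 1.67 RPKM, and in VMH-Fast library 6 at 8.03 RPKM, the others being at 0.6 to 1.397 RPKM. In the ARC it was at 1.83 RPKM in fed library 1 (others 0.77 to 1.05) and at 0.5996 RPKM, the no-read value of its batch, in fasted library 1 (others 0.85 to 0.913). Nmu was at 6.65 RPKM in VMH-Fast library 4 (others 1.83 to 3.22) and in PVN-Fed library 2 at 4.35 RPKM, against 1.11 to 1.5 RPKM. Vip was at 0.933 RPKM in DMH-Fast library 1 and at 1.07 RPKM in PVN-Fed library 2, with the others of both groups at 0.699 to 0.731 RPKM.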

How the results depend on the processing

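The members past the threshold numbered 6 between fed and 6 between fasted nuclei under every alternative run, including each library left out (6 to 6 in both states), and 0 for fasting in each nucleus and for a response that differed between nuclei (0 to 0 with a library left out). With the replicate number as a block these counts were 6, 6 and 0. Whether the numbers pair the samples cannot be told. Fed and fasted libraries of the same number had deviations with a median r of -0.0595 (-0.121 to 0.0544, 20 pairs). For 2 nuclei in the same state it was -0.0416 (-0.131 to 0.0655, 58 pairs). Libraries of the same number often fell in the same batch, whose means had been removed, which lowers such an r. Neither value can therefore show or exclude pairing, and the block stands for no known design. The 4 fasting comparisons under an exact p of 0.05 became 3 to 5 with a library left out and 0 with the first batch left out, where fewer libraries were tested. Over all genes, calls for fasting ranged from 6 to 31 in the ARC (19 in the report's setting), 16 to 64 in the VMH (44), 6 to 89 in the DMH (8) and 11 to 48 in the PVN (24) with a library left out, and from 0 to 24, 0 to 57, 0 to 10 and 3 to 41 in the other settings. The interaction gave 2 to 7 (2) and 0 to 6. Between neighbouring nuclei, Cck between ARC and PVN in fasted mice lost its call in 4 of 20 alternatives (adjusted p up to 0.152). Without the first batch Gal passed between ARC and PVN in both states (adjusted p = 0.00896 and 0.0474). The causes were not tested. Vip and Nmu had at most an estimated 4 and 15 reads in any library, so differences in them were hardly detectable.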
